A study of Mus musculus with 6 samples.

Results

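The tumour suppressor p53, its negative regulators, its target genes, the inhibitors of cyclin-dependent kinases and the G1 cyclins were examined in immortalized mouse proximal tubular cells with and without a knockdown of Glis2. The set was chosen by gene symbol and lists 44 genes, of which 42 had a probe with that symbol among the 19057 genes measured. Trp53 itself and the death effector Bax were not analysed here. Control cells carried an shRNA, a hairpin that lowers its target transcript, against GFP, a protein that mouse cells lack, and Glis2KD cells carried one against Glis2, a zinc finger transcription factor whose loss leads to cystic and fibrotic kidney disease. Both groups were infected with lentivirus and harvested after 7 days, both have the strain background given as C56BL/6, and each was measured on 3 Illumina bead arrays. Each group rests on 1 hairpin and 1 line, and the sources used here do not say how that line was immortalized. The labels do not say whether the arrays of a group came from separate infections, so the p-values measure only how far these samples scatter, and that scatter may be technical. With 1 hairpin, a loss of Glis2 and other actions of that hairpin cannot be told apart.

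When DNA is damaged or a cell is stressed, p53 is freed from its inhibitors Mdm2 and Mdm4 and switches on genes that stop the cell cycle, repair DNA, retune metabolism or start cell death, and among its targets are Mdm2 and other genes that switch it off again. Arrest in G1 works through inhibitors of cyclin-dependent kinases. Proteins of the Cip/Kip family (Cdkn1a, Cdkn1b, Cdkn1c) bind several cyclin and kinase pairs, whereas those of the Ink4 family (Cdkn2a to Cdkn2d) bind Cdk4 and Cdk6, the partners of the D cyclins. Both keep the retinoblastoma protein Rb1 unphosphorylated, so that it holds back E2F transcription factors. In the kidney, Cdkn1a and Gadd45 genes are known to be induced in injured tubules.

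The values are deposited intensities, linear and with background included. Background was set at an intensity of 138, and a gene counted as above it when its mean over the 6 arrays was higher. A gene was called when limma's adjusted p, by Benjamini-Hochberg over all 19057 genes, was under 0.05. Glis2 was 278, 234 and 229.7 on the control arrays and 169, 161 and 176 on the Glis2KD arrays, a lower level on every Glis2KD array (log2 fold change -0.55, or -1.27 with background subtracted), whereas the study's own text gives a knockdown of more than 80% by a measurement not analysed here. Of 9 measured markers of the proximal tubule, only Aqp1 and Mme were above background, both were called lower in Glis2KD cells, and Lrp2, Cubn, Slc34a1 and Hnf4a had means below the limit. All 6 general kidney epithelial markers were above it, Epcam only just, with a mean of 141. Of the 6, Krt8 and Krt18 were called higher and Cdh1 and Cdh16 lower. Among markers of other cells, 1 of 7 for fibroblasts (Dcn, called lower), 0 of 5 for endothelium, 1 of 5 for leukocytes (Csf1r, called higher), 1 of 2 for podocytes (Podxl, called higher) and 3 of 6 for other tubule segments were above background. The last 3 were Slc12a1, Slc12a3 and Atp6v1b1, with means of 142, 1196 and 150, and none of them was called. Summed intensities on the control and Glis2KD arrays ranged over 10885 to 12391 and 1299.8 to 1502 for proximal tubule markers and over 56723 to 60187 and 78173 to 80650.0 for epithelial ones. They ranged over 966 to 1012 and 815 to 866 for fibroblasts, 651 to 667 and 689 to 737 for leukocytes, and 549.7 to 594 and 694 to 759 for podocytes. For endothelium they were 569 to 619 and 612 to 645, and for other tubule segments 1829.9 to 1947 and 1728 to 1885. A few bright genes lead some of these sums. Mean Aqp1 was 9760 in control and 365 in Glis2KD cells, and Krt8 and Krt18 made up most of the epithelial sum. Markers under the limit add mostly background, so the sums are not levels of cell types. The part of these markers in the results below was not tested.

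Of the 42 genes, 19 were called, 10 higher and 9 lower in Glis2KD cells, where 22.5% of all genes were called, 11.1% higher and 11.4% lower. Because 38 of the 42 were above background, the share to set beside them is that of the 9599 genes above background, of which 43.4% were called, 21.4% higher and 22.0% lower. All 19 called genes were above background, so the share of called genes among the 38 was 50% and close to that background. The groups did not overlap for 22 of the 38, against 52.4% of all genes above background and 32.2% of all genes. The median log2 fold change of the 42 was -0.04, against 0.00 over all genes, and calls in the set were split between higher and lower. Beside some results the median change of the nearest genes above background on the same chromosome is given, at most 25 on each side. The gene's change relative to them is given too, a comparison added after the values were seen. The latter subtracts from each array the median deviation of the neighbours on that array, so it is not exactly the gene's change minus the printed median. Relative to neighbours, 28.9% of 18964 genes were called, against 22.5% of all genes without that step. By role, 0 of 6 measured p53 regulators rose and 2 fell, 2 of 7 CDK inhibitors rose and 2 fell, and 2 of 6 genes of the G1 cyclin and Rb group rose and 1 fell. Among growth arrest targets and markers 3 of 7 rose and 2 fell, Gadd45a and Lmnb1. Lmnb1 is there as a marker, because its loss is used to mark senescence. Among death genes 3 of 10 rose and 0 fell, and among metabolic, antioxidant and repair genes 0 of 6 rose and 2 fell.

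**Figure D1:**
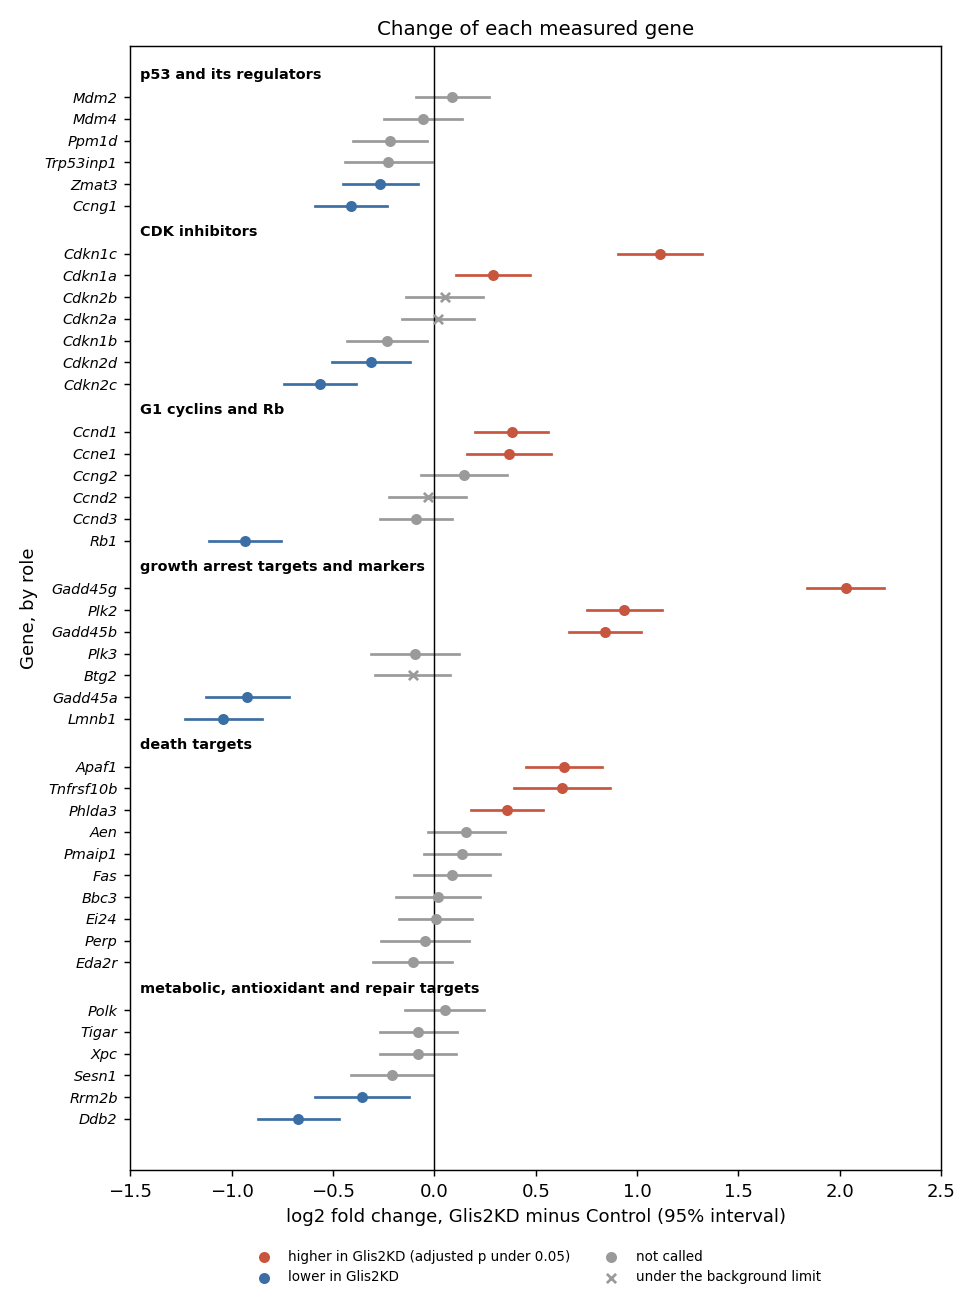
Log2 fold change of each of the 42 measured genes, Glis2KD minus Control, with its 95% interval from limma, grouped by role; red and blue points were called higher and lower, grey points were not called and crosses were under the background limit. Called changes run in both directions among the CDK inhibitors, the cyclin and Rb group and the growth arrest targets and markers. They range from -1.04 for Lmnb1 to 2.03 for Gadd45g. The called death genes (3 of 10) lie above 0, and the called regulators (2 of 6) and repair genes (2 of 6) lie below it. Among all genes above background 43.4% were called. Of those death, regulator and repair genes, Tnfrsf10b, Zmat3 and Rrm2b lost their call in some alternatives.

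Promoter sequences of 5 genes are shown because these genes stand for the p53 motif and for the directions found in the Gadd45 family. The motif to mark was chosen for each gene, and a link between motif and direction of change was not tested. They come from RefSeq, build GRCm38.p6, and each is the 250 bases before an annotated start, written 5′ to 3′ on the gene's strand. Capitals in the first 3 mark matches to the p53 decamer, the 10-base unit that a p53 response element holds in a pair and whose consensus reads the same on both strands. Capitals in the last 2 mark TATAAA, a core promoter motif searched on both strands. The window of Cdkn1a lies at chr17:29090729-29090978 on the plus strand and belongs to the outer of its 2 annotated starts, 2790 bases apart. Those of Ccng1 and Gadd45a are chr11:40755287-40755536 and chr6:67037408-67037657, both on the minus strand, and those of Gadd45b and Gadd45g are chr10:80929841-80930090 and chr13:51846425-51846674, both on the plus strand.
Cdkn1a: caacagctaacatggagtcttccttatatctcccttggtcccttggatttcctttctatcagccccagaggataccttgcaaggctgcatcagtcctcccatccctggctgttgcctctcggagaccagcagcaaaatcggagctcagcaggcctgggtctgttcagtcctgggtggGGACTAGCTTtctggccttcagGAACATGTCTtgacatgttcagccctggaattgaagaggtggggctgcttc
Ccng1: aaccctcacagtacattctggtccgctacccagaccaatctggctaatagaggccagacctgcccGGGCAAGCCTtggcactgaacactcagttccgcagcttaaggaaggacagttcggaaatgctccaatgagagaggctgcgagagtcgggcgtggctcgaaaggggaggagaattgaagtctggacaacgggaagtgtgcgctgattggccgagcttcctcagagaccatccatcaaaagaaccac
Gadd45a: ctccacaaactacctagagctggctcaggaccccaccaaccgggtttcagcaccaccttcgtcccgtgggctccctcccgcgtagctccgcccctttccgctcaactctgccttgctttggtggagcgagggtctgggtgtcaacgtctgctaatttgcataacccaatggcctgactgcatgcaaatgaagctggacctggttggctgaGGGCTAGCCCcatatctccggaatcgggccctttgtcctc
Gadd45b: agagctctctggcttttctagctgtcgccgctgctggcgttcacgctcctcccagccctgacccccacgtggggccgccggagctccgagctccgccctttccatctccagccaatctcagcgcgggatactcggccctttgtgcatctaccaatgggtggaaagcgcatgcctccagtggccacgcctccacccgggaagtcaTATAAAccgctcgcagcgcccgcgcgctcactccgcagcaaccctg
Gadd45g: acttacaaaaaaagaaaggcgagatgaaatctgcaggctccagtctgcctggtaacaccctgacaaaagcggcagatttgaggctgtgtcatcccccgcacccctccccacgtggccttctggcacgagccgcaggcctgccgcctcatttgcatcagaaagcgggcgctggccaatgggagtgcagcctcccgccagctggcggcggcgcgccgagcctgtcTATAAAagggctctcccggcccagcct
Cdkn1a had 2 decamers, GGACTAGCTT and GAACATGTCT, that begin 73 and 51 bases before its start. These are not adjacent. Only exact matches are in capitals, so tgacatgttc, directly after GAACATGTCT, is not marked. In Ccng1 the match was GGGCAAGCCT, 185 bases before the start, and in Gadd45a it was GGGCTAGCCC, 40 bases before. A single decamer, as in Ccng1 and Gadd45a, is not a full response element. In Gadd45b and Gadd45g TATAAA begins 46 and 27 bases before their starts. RefSeq promoters were matched for 31 of the 44 genes, and a gene counted as holding a motif if any of its windows did. The decamer was found in 12 of the 31 (38.7%), against 2216 of 27025 genes (8.20%). It was in 3 of 4 matched genes called lower, 1 of 7 called higher and 6 of 18 not called, and the promoters of Trp53 and Bax, not measured here, held it as well. Only 4 of the 9 genes called lower and 7 of the 10 called higher were matched. The set was chosen around known p53 targets, so its share and that of all genes are not a neutral comparison. TATAAA on either strand was in 4 of the 31, against 14.3% of all genes. It was in 2 of 7 matched genes called higher, 0 of 4 called lower and 1 of 18 not called, and in Trp53. These are matches of letters in a short window, not measured binding, and motifs outside the windows were not searched.

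Among p53 regulators, Ccng1 and Zmat3 were lower in Glis2KD cells, and the central inhibitors Mdm2 and Mdm4 were not called. Ccng1, cyclin G1, a direct p53 target that brings the phosphatase PP2A to Mdm2, had intensities of 13033, 13648 and 12510.3 in control and 10252, 9834 and 9422 in Glis2KD cells. All 3 Glis2KD arrays lay below all control arrays (log2 fold change -0.41 ± 0.086, SE; limma's adjusted p = 0.000754). Its 2 other probes had -0.24 and -0.30. Zmat3, an RNA-binding zinc finger protein and p53 target, went from 3998, 4598 and 4118 to 3666, 3321 and 3566, again without overlap, a change of -0.27 ± 0.089 (limma's adjusted p = 0.0309). Leaving out Control replicate 2, Glis2KD replicate 2 or Glis2KD replicate 3 ended that call, with limma's adjusted p at 0.168, 0.137 and 0.0608.

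Mdm2, the ubiquitin ligase that marks p53 for degradation and is itself a p53 target, was 8633, 8980.0 and 9406 in control and 9805, 10054 and 8905 in Glis2KD cells. The groups overlapped, and the 95% interval of its log2 fold change ran from -0.09 to 0.27. Mdm4, its relative that blocks p53's activation domain, was near background at 153, 154 and 141 in control and 162, 136 and 134 in Glis2KD cells, overlapping, with an interval from -0.25 to 0.14. Ppm1d, the phosphatase Wip1 that turns the damage response off, was 961, 894 and 868 in control and 732, 782 and 827 in Glis2KD cells; the groups did not overlap, but with -0.22 and limma's adjusted p = 0.0835 it was not called. Trp53inp1, a stress protein that promotes p53 phosphorylation, had -0.23 with limma's adjusted p = 0.140 on the probe used, where Glis2KD replicate 3 lay among the control arrays at 1664. Without that array the change was -0.35 and was called (limma's adjusted p = 0.0176), and a second probe with a mean of 755 had -0.48.

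Of the CDK inhibitors, 2 of 3 in the Cip/Kip family rose. In the Ink4 family 2 of 4 fell, and the others, Cdkn2a and Cdkn2b, were under background. Among all genes above background 43.4% were called, 21.4% higher and 22.0% lower. Cdkn1c, the imprinted inhibitor p57, had the largest change of the 7. It was 345, 263 and 334 in control and 711, 648 and 664 in Glis2KD cells, 2.16-fold higher without overlap (log2 fold change 1.11 ± 0.10, limma's adjusted p = 6.19e-09). Its 43 neighbours above background on chromosome 7 had a median change of 0.21, and relative to them the change was 0.92 (limma's adjusted p = 1.42e-08). Cdkn1a, the inhibitor p21 and the best known arrest target of p53, rose less. Its intensities were 5751, 6589 and 5603 in control and 7151, 7281 and 7444 in Glis2KD cells, a log2 fold change of 0.29 ± 0.089 with limma's adjusted p = 0.0188. The 2 other probes of Cdkn1a gave 0.36 and 0.57, so all of its probes were higher. On the probe used, leaving out Control replicate 1, Control replicate 3 or Glis2KD replicate 3 ended the call (limma's adjusted p 0.0775, 0.0867 and 0.0639), as did subtracting background or normexp correction (0.0766 and 0.0812). Cdkn1b, the inhibitor p27, was 183, 147 and 172 in control and 144, 150.2 and 132 in Glis2KD cells, close to background and with overlap. Its change of -0.23 was not called (limma's adjusted p = 0.0874), except without Control replicate 2 (-0.32, limma's adjusted p = 0.0218).

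Cdkn2c, the Ink4 inhibitor p18, fell from 619, 619 and 673 to 411, 439 and 441. The groups were clearly apart, with a log2 fold change of -0.57 ± 0.086 and limma's adjusted p = 1.73e-05, and its 2 other probes had -0.39 and -0.40. The median of its chromosome 4 neighbours was -0.21, and relative to them the change was -0.36 (limma's adjusted p = 0.00277). Cdkn2d, the inhibitor p19Ink4d, fell from 370.1, 315 and 334 to 249, 298 and 274, a change of -0.31 ± 0.094 with limma's adjusted p = 0.0158. Its call was lost without Control replicate 1 or Glis2KD replicate 1 (limma's adjusted p 0.106 and 0.104), and with background subtracted the change was -0.50 with an adjusted p of 0.139 by limma. Cdkn2a, which encodes p16 and the Mdm2 inhibitor p19Arf, and its neighbour Cdkn2b, which encodes p15, were not above background on any of the 6 arrays. Their means over the 6 arrays were 128 and 115, so no change in them was measurable here.

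**Figure D2:**
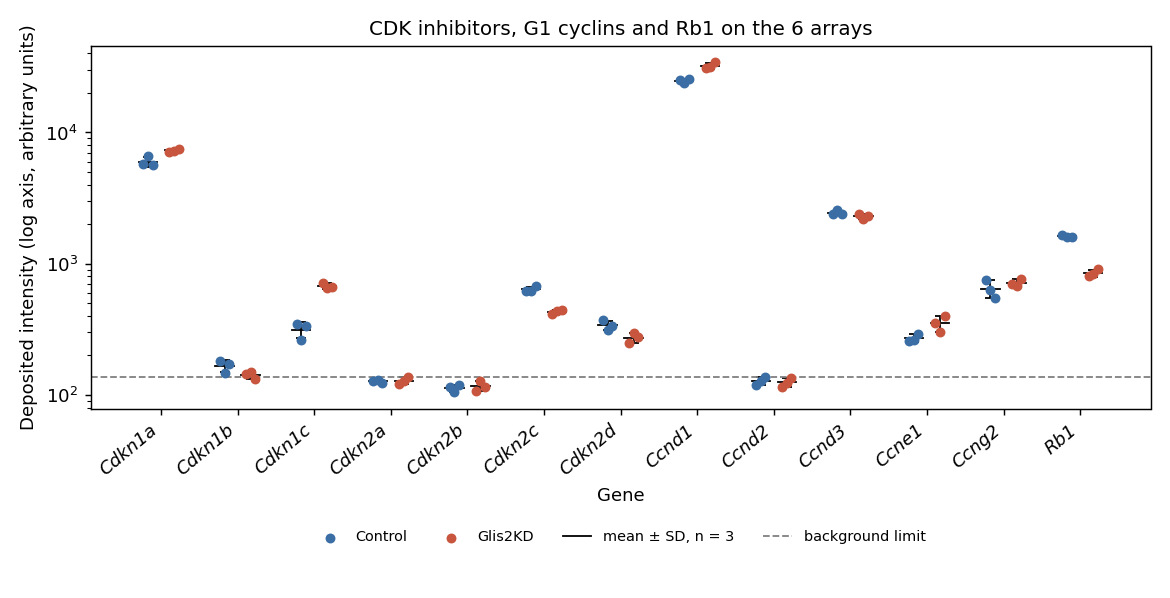
Deposited intensity (log axis) of the CDK inhibitors, the cyclins and Rb1 on each array, control in blue and Glis2KD in red, with mean and SD of 3 arrays and the background limit of 138 as a dashed line. Cdkn1c and Rb1 show the widest separation of the groups, in opposite directions, while Cdkn2a, Cdkn2b and Ccnd2 lie under the limit on all 6 arrays.

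Ccnd1 and Ccne1 rose and Rb1 fell, while Ccnd2, Ccnd3 and Ccng2 were not called. Ccnd1, cyclin D1, the partner of Cdk4 and Cdk6, was 25157, 23717 and 25358 in control and 31033, 31479 and 34184 in Glis2KD cells, a log2 fold change of 0.38 ± 0.086 with limma's adjusted p = 0.00158. Its 2 other probes gave 0.39 and 0.11. Ccne1, cyclin E1, the partner of Cdk2, went from 257, 264 and 293 to 354, 301 and 399 without overlap, a change of 0.37 ± 0.10 with limma's adjusted p = 0.00776. Without Glis2KD replicate 3 it was 0.27 and no longer called (limma's adjusted p = 0.0778), and with background subtracted it was 0.58 with an adjusted p of 0.157 by limma. The neighbours above background had median changes of 0.14 around Ccnd1 (26 genes) and 0.19 around Ccne1 (50 genes), both on chromosome 7. Relative to those neighbours the change of Ccnd1 was 0.24 (limma's adjusted p = 0.0444) and that of Ccne1 was 0.17 and not called (limma's adjusted p = 0.222).

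Rb1, the pocket protein that restrains E2F, fell from 1656, 1612 and 1602 in control to 803, 839 and 908 in Glis2KD cells. The Glis2KD level was 0.523 of control, with a log2 fold change of -0.94 ± 0.086 and limma's adjusted p = 9.96e-09, and its second probe gave -0.55. The median of its chromosome 14 neighbours was -0.08. Ccnd3, cyclin D3, was 2440.3 ± 95.4 and 2291 ± 86.9 (SD, n = 3), barely without overlap, with a 95% interval of the log2 fold change from -0.27 to 0.09, and Ccnd2, cyclin D2, was under background on all 6 arrays. Ccng2, a cyclin linked to cell cycle exit, had an interval from -0.07 to 0.36 and overlapping groups.

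Growth arrest targets and markers held the largest rise of the 42, Gadd45g, and the largest fall, the marker Lmnb1. The Gadd45 family, small stress proteins that bind Cdk1, PCNA and upstream kinases of the p38 and JNK pathways, moved in both directions. Gadd45g was 1439, 1631 and 1349 in control and 6305, 5991 and 5707 in Glis2KD cells. It rose 4.08-fold, a log2 fold change of 2.03 ± 0.091 with limma's adjusted p = 2.84e-14, and its second probe had 2.21. Gadd45b rose from 1064, 1146 and 1185 to 2065, 2019.5 and 1992, a change of 0.84 ± 0.086 with limma's adjusted p = 4.97e-08. Gadd45a, the member of the family that is a classical p53 target, went the other way, from 3525, 3368 and 4202 to 2138, 1753 and 1956. Its log2 fold change was -0.92 ± 0.099 with limma's adjusted p = 1.20e-07, and its second probe gave -0.88. In each of the 3 the control and Glis2KD arrays did not overlap. Gadd45b lies among genes of chromosome 10 with a median of 0.31, and relative to them its change was 0.52.

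Plk2, a polo-like kinase induced by p53 and by serum, rose from 1777, 2032 and 1830.0 to 3475, 3849.7 and 3463 without overlap, 1.91-fold, with a log2 fold change of 0.94 ± 0.089 and limma's adjusted p = 1.73e-08. Its relative Plk3 had overlapping groups, at 605 ± 80.9 and 567 ± 74.0 (SD, n = 3), and an interval from -0.31 to 0.12. Btg2, an antiproliferative p53 target, was under background on all 6 arrays. Lmnb1, the nuclear lamina protein lamin B1, whose loss is used as a marker of senescence, fell from 8894, 10272 and 8790.5 to 4772, 4631 and 4163. Its log2 fold change was -1.04 ± 0.092 with limma's adjusted p = 5.11e-09, and its second probe gave -0.74. Genes around it on chromosome 18 had a median of -0.35, and relative to them Lmnb1 was still lower, by a log2 change of -0.71 (limma's adjusted p = 8.03e-07).

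**Figure D3:**
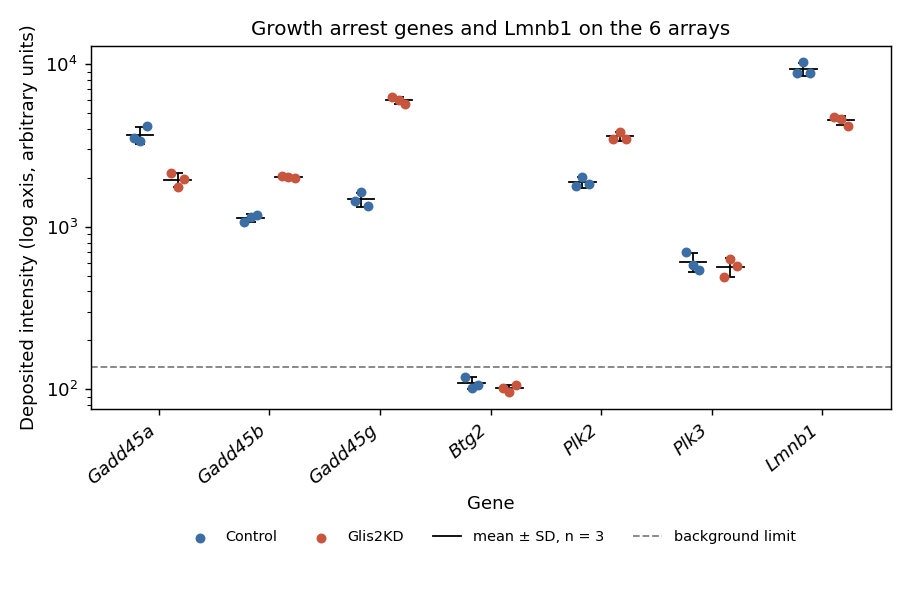
Deposited intensity (log axis) of the 7 growth arrest targets and markers on each array, with mean and SD of 3 arrays and the background limit as a dashed line. Gadd45g, Gadd45b and Plk2 are higher on all 3 Glis2KD arrays, Gadd45a and Lmnb1 are lower on all 3, Plk3 overlaps and Btg2 lies under the limit.

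Death genes were called in 3 of 10 cases, all higher, where 43.4% of all genes above background were called. The BH3-only effectors of p53 were not among the called genes. Apaf1, the scaffold of the apoptosome that activates caspase 9, rose from 2370.5, 2388 and 2554 to 4207, 3716 and 3501, a log2 fold change of 0.64 ± 0.091 with limma's adjusted p = 6.75e-06. Both other probes were higher too, at 0.80 and 0.57. The median of its chromosome 10 neighbours was 0.29, and relative to them the change was 0.34 (limma's adjusted p = 0.00612). Phlda3, a p53 target that competes with Akt for membrane lipids, rose from 2661, 2794 and 2903 to 3532, 3499 and 3686, a change of 0.36 ± 0.085 with limma's adjusted p = 0.00244, and its second probe gave 0.35. Tnfrsf10b, the death receptor for TRAIL, was 702, 545 and 716 in control and 857, 1185 and 998 in Glis2KD cells, without overlap (log2 fold change 0.63 ± 0.11, limma's adjusted p = 0.000156). That rise rests on 1 probe: 3 others above background had 0.00, -0.03 and -0.02, and with the mean of all its probes the change was 0.12 and not called (limma's adjusted p = 0.212).

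Bbc3 and Pmaip1, which encode the BH3-only proteins Puma and Noxa, were well above background. Bbc3 was 1540.3, 1171 and 1195 in control and 1269, 1338 and 1315 in Glis2KD cells, with the Glis2KD arrays inside the control range and an interval of the log2 fold change from -0.19 to 0.22. Pmaip1 was 1343, 1324 and 1225 in control and 1469, 1287 and 1527 in Glis2KD cells, with an interval from -0.05 to 0.32. Pmaip1 was not called (limma's adjusted p = 0.378). It lies on chromosome 18 among genes with a median of -0.24. Only relative to those neighbours, where 28.9% of genes were called, was it called, higher by 0.43 (limma's adjusted p = 0.000751). Ei24, an endoplasmic reticulum protein induced by p53, was 3061 ± 152 and 3076 ± 159 (SD, n = 3). The remaining death genes lay near background and were not called: the death receptor Fas (138 over the 6 arrays, with 3 of them under the limit), the desmosomal protein Perp (145), the nuclease Aen (175) and the ectodysplasin receptor Eda2r (168). Only Aen had groups that did not overlap. Their log2 fold changes lay between -0.11 and 0.16, and the background in these intensities narrows such differences.

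Metabolic, antioxidant and repair targets were called in 2 of 6 cases, both lower, where 43.4% of all genes above background were called. Ddb2, the damage sensor of nucleotide excision repair, fell from 1023, 1124 and 1327 to 698, 705 and 767. The groups did not overlap, the log2 fold change was -0.67 ± 0.097 with limma's adjusted p = 8.75e-06, and its 3 other probes ran from -0.45 to -0.38. Rrm2b, the p53-induced subunit of ribonucleotide reductase, was 835, 905 and 615 in control and 567, 638 and 615 in Glis2KD cells. Control replicate 3 lay within the Glis2KD range, and the call (-0.36 ± 0.11, limma's adjusted p = 0.0219) was lost without Control replicate 1 or 2 or Glis2KD replicate 1 or 3, at limma's adjusted p from 0.0511 to 0.175. Averaging its 3 probes, 2 of them under background, also ended it (-0.10, limma's adjusted p = 0.386).

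Xpc, the partner of Ddb2 in recognising damaged DNA, was 1086, 1001 and 1009.9 in control and 986, 887 and 1062 in Glis2KD cells, overlapping, with an interval from -0.27 to 0.11. Polk, a polymerase that copies past lesions, had an interval from -0.15 to 0.25. Sesn1, a sestrin that limits oxidants and mTORC1, was 1072, 865 and 858 in control and 747, 858 and 806 in Glis2KD cells, apart by less than 1 unit of intensity, a change of -0.21 that was not called (limma's adjusted p = 0.152). Around it on chromosome 10 the median was 0.27. Only relative to those neighbours, where 28.9% of genes were called, was Sesn1 called, with a log2 change of -0.49 (limma's adjusted p = 0.000480). Tigar, which lowers glycolytic flux, was near background at 152 ± 15.5 and 143 ± 7.30 (SD, n = 3) and was not called.

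**Figure D4:**
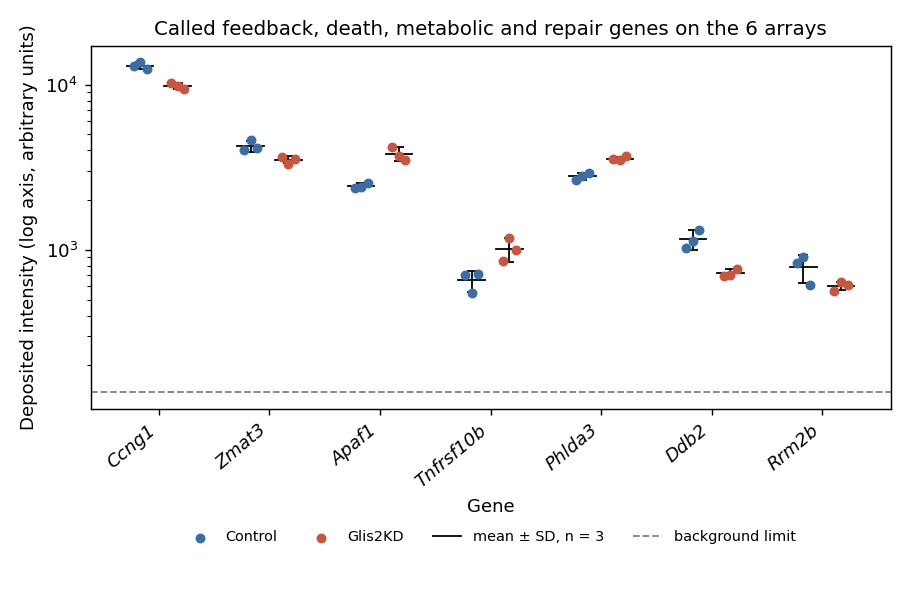
Deposited intensity (log axis) on each array of the 7 called genes among the p53 regulators, death, metabolic and repair genes, with mean and SD of 3 arrays and the background limit as a dashed line. The groups are apart for all but Rrm2b, where 1 control array at 615 lies among the Glis2KD arrays.

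Further probes bear on how far each change holds for a gene. The 42 genes had 99 probes, 29 genes had more than 1, and 34 of the 57 probes not used were above background. Of the 22 such probes on called genes, 20 had the sign of the probe used and 17 of those were also called when limma was run over all named probes. Both exceptions in sign belonged to Tnfrsf10b. The called genes Zmat3, Cdkn1c, Cdkn2d, Ccne1 and Plk2 had no other probe. Probes of 1 gene share their transcript and arrays and are not replicates.

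**Figure D5:**
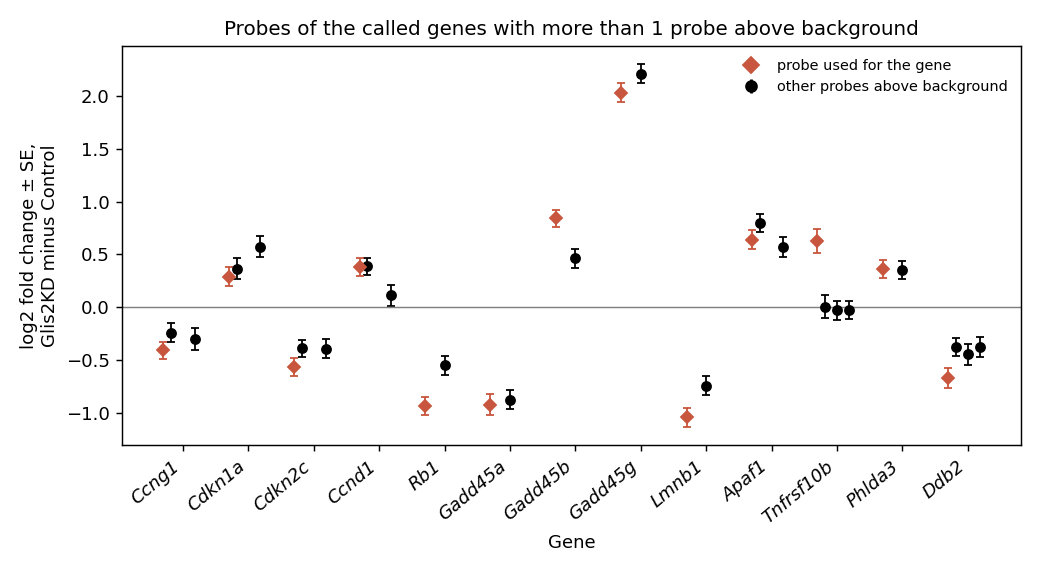
Log2 fold change ± SE, Glis2KD minus Control, of each probe above background for the called genes that have more than 1 such probe, with the probe used for the gene as a red diamond and the others in black. Probes of 12 of the 13 genes lie on 1 side of 0, and 3 of the 4 probes of Tnfrsf10b lie at about 0.

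Other genes of the pathway came from a list of 79 further targets, regulators and partners, of which 74 were measured. In it 10 rose and 17 fell, 27 of the 63 above background (42.9%, where 43.4% of all genes above background were called), and the median log2 fold change of the 74 was -0.02. Genes that rose with the smallest p were Sfn, the 14-3-3 sigma protein of the G2 checkpoint, Trp53i11, Cd82 and Ptp4a3. Sfn went from 220.3, 233 and 211 to 460.1, 438 and 409, a log2 fold change of 0.98 ± 0.087 (limma's adjusted p = 6.31e-09). With the mean of all probes of a gene, the change was 0.48 for Sfn, 0.54 for Trp53i11 and 0.33 for Ptp4a3, and with background subtracted it was 1.58, 2.54 and 1.51. Subtracted values were floored at 16, and all control values of Trp53i11 were set to that floor, so its 2.54 depends on the floor chosen. Trp53i11, a p53-induced gene, was under background on all control arrays and was at least 1.5-fold higher, with those arrays set to the limit. The tetraspanin Cd82 and the phosphatase Ptp4a3 each changed by 0.71 on the log2 scale, and Cd82 had limma's adjusted p = 0.0520 with background subtracted.

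Genes that fell with the smallest p were Ephx1, Thbs1, Ckap2 and Casp9. Ephx1, the microsomal epoxide hydrolase, fell from 7757, 6729 and 8208 to 3501, 3595 and 3782, a log2 fold change of -1.06 ± 0.092 with limma's adjusted p = 3.72e-09. Casp9, the caspase that the Apaf1 scaffold activates, fell from 1535, 1417 and 1189.5 to 825, 850.1 and 742, a change of -0.77 ± 0.098 (limma's adjusted p = 1.53e-06), whereas Apaf1 rose. With the mean of its probes the change of Casp9 was -0.27 (limma's adjusted p = 0.00514). Thbs1, the matrix protein thrombospondin 1, had -0.80, and Ckap2, a spindle protein, had -0.67. None of these 4 had overlapping groups.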

How the data were processed

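RNA from 3 Control and 3 Glis2KD samples was hybridised with Cy3 label to Illumina mouse arrays, per the labels. The authors deposited 1 linear intensity per probe and array; the sources used here do not state their software or normalization. The deposited values share one distribution (log2 medians differ by at most 0.000288) and were not background-subtracted (lowest 85.4, most frequent 113). They were floored at 16, which altered 0 values, and log2-transformed. Where background was subtracted, the most frequent intensity was taken off first and the floor of 16 then replaced lower values. The platform annotation names 1 gene for 34885 of the 45281 probes and several for 18, and 34807 matched RefSeq (GRCm38.p6) by Entrez identifier, used for names, neighbours and promoters. Each gene was its brightest probe by mean log2 value. Groups were compared with limma 3.58.1 (R 4.3.3; lmFit, eBayes, Benjamini-Hochberg), tested on simulated data. The background limit is the most frequent intensity plus 3 SD, estimated from lower values. Members, lists and roles were chosen with earlier results of these data known. Named genes were all members, Glis2 and, of the other pathway genes, the 4 called higher and 4 called lower with the smallest p. Alternatives covered a replicate block, normalization, background, filters, probes, variance model and each array left out; the comparison with neighbouring genes was added after the data were seen. The number of arrays limits the precision. No batch is given in the labels. In bulk RNA, fewer cells of a type and less RNA per cell cannot be told apart.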

Additional observations from a re-analysis of the deposited data

How the results depend on the processing

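The count of 19 called members ranged from 13 with background subtracted to 20 with an offset of 50 over the 17 alternatives run, and from 16 to 18 when single arrays were left out. For the other pathway genes the count of 27 ranged from 21 to 29, and from 23 to 25 without single arrays. With the replicate number as a block 18 members and 26 other pathway genes were called. Deviations of same-numbered arrays correlated at -0.094, -0.039 and -0.039, so no shared deviation was seen. These values cannot tell whether the numbers pair the arrays, and the labels do not say. Of the 19 called members, 13 kept their call in every alternative run. Zmat3, Cdkn1a, Cdkn2d, Ccne1, Tnfrsf10b and Rrm2b lost theirs in at least 1, and no called member changed sign in any. Zmat3 was the only member lost under the block (limma's adjusted p = 0.0525), and it also lost its call with background subtracted, after normexp correction and relative to neighbouring genes (0.0941, 0.111 and 0.106). Relative to neighbours, Cdkn2d and Rrm2b were lost as well (0.0672 and 0.0604). Rrm2b also lost it with background subtracted or after normexp correction (0.338 and 0.0611), and Tnfrsf10b with background subtracted (0.109). Ppm1d was called with an offset of 50 (0.0454) and Trp53inp1 with the mean of its probes (0.0112). The causes were not tested. Members near background, 4 of them under the limit, are where low signal limits what could be seen. With background subtracted 2633 of all genes were called, against 4290.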

Other observations

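The kinases, E2F factors and pocket proteins that act with the G1 cyclins were picked out of the list of other pathway genes after their values were seen. Of these 14 genes, 13 of them above background, 4 rose and 2 fell, where 43.4% of all genes above background were called. Cdk4, the kinase partner of cyclin D1, was 6029, 6863 and 6677 in control and 8372, 8086 and 7998 in Glis2KD cells, a log2 fold change of 0.32 ± 0.087 with limma's adjusted p = 0.00707. Without Control replicate 1 its adjusted p by limma was 0.0543. E2f3, an activating E2F factor, rose from 281, 360.2 and 305 to 425, 453 and 518 (0.56 ± 0.10, limma's adjusted p = 0.000130), and Cdc25a, a phosphatase that activates Cdk2, rose by 0.45. With the mean of their probes these were 0.26 and 0.29. E2f1 and the pocket protein Rbl1, a relative of Rb1, had -0.34 and -0.42. E2f1 lost its call without Control replicate 3 or Glis2KD replicate 1 (limma's adjusted p 0.108 and 0.0531), and Rbl1 with the mean of its probes (0.0671). E2f4 rose by 0.31, and leaving out Control replicate 1, Control replicate 2 or Glis2KD replicate 1 ended its call (limma's adjusted p 0.0802 to 0.121). With background subtracted Cdc25a, Rbl1, E2f1, E2f3 and E2f4 had limma's adjusted p from 0.0652 to 0.172, and Cdk4 kept its call. The mitotic kinase Cdk1, the S phase cyclin Ccna2 and Cdk2 were not called, with log2 fold changes of 0.10, 0.05 and 0.09.

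The 5 kinases of the DNA damage response that signal to p53 were likewise picked after their values were seen. Of these 5, 4 of them above background, 2 fell and 0 rose, where 43.4% of all genes above background were called. With the mean of its probes Atm had -0.43, and with background subtracted Prkdc had -1.11. Atm went from 1036, 1006 and 1063 to 664, 669.8 and 628, a log2 fold change of -0.66 ± 0.085 with limma's adjusted p = 1.60e-06. Prkdc, the DNA-dependent protein kinase, went from 252, 321 and 271 to 187, 202 and 183 (-0.56 ± 0.096, limma's adjusted p = 7.90e-05). Chek1 and Chek2, the kinases downstream of Atr and Atm, had -0.21 and 0.18 and were not called, and Atr was under background in its mean.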
